A study of Homo sapiens with 60 samples.

Results

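HT29 cells, an established line of colorectal adenocarcinoma, were treated for 24 h with ethanol extracts of 2 medicinal plants at the medium dose of 100 µg/mL, and their messenger RNA was compared. The first extract was made from Scutellariae Radix, a skullcap root rich in flavones such as baicalin and wogonin, and the other from Pinelliae Tuber, the tuber of an aroid. The comparison took 6 of the 60 libraries in the series, 3 for each extract, with each library's group read from its labels. Both extracts were prepared with 70% ethanol per the treatment protocol, and all 6 sample codes begin with 10. No vehicle library enters the difference between the extracts. The same extracts at 20 µg/mL (low dose) and 500 µg/mL (high dose), also at 24 h, and 3 libraries treated with DMSO for 24 h were used to place that difference. The sample labels give the vehicle as 0.1% DMSO and the text of the series gives it as 2%, so its strength is not settled. The vehicle codes begin with C1, and the labels do not say what this part of a code stands for. Each comparison of an extract with the vehicle is thus also a comparison of code sets, and the 2 cannot be told apart in it. No genotype change or other agent is named for any of these groups, and HT29 is the only cell line in them. The labels do not say that the 3 libraries of a group came from separate cultures, so a p-value here reflects library-to-library spread, which may be technical.

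Several gene programmes bear on this comparison. The aryl hydrocarbon receptor (AhR) is a ligand-activated transcription factor that binds planar aromatic compounds, plant flavonoids among them, and induces cytochrome P450 enzymes of family 1. NRF2 is a transcription factor released by oxidants and electrophiles that induces antioxidant and detoxification enzymes. The liver X receptors (LXR) are activated by oxysterols and induce the transporters that export cholesterol, whereas SREBP2 is activated when membrane sterol is low and induces the enzymes of cholesterol synthesis and uptake of lipoproteins.

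The 6 libraries held between 22385826 and 28599984 counts, and the 60 libraries of the series between 18016461 and 35819919. Of the 54 libraries fitted together, 3 stood apart, over 10 median absolute deviations from the median share of mitochondrial counts (Pinelliae high dose 2, 14.3%) or ribosomal protein counts (vehicle 1, 7.20%, and Scutellariae low dose 3, 9.35%). None of these is among the 6, whose ribosomal protein share was 5.50% to 5.87%. The share of mitochondrial counts was 6.66% to 8.25% with Scutellariae and 6.88% to 7.35% with Pinelliae. Markers of colon epithelium were present in all 6 libraries, with EPCAM at 537.74 to 565.19 CPM (counts scaled to a common library size), KRT8 at 5439.65 to 6111.8 CPM and CDX2 at 5.17 to 5.98 CPM. Of other cell types, COL1A2 (fibroblasts), CD3E (T cells), and CDH5 and EMCN (endothelium) were at 0 in all 6 libraries. Sums of these markers are in CPM by the total count of each library, without TMM scaling. The 8 fibroblast markers summed to 3.39 to 3.99 CPM with Scutellariae and 2.37 to 3.68 CPM with Pinelliae, and 1 of them, LUM, was called higher with Scutellariae by 1.10 ± 0.24 (log2 ± SE, adjusted p = 0.00376). That call was lost without Pinelliae library 1 (adjusted p = 0.0993) and without Scutellariae library 2 (adjusted p = 0.0514), and its part in the results below was not tested. Immune markers without LYZ summed to 8.81 to 9.47 CPM with Scutellariae and 8.42 to 9.57 CPM with Pinelliae, and endothelial markers to 2.33 to 3.08 and 1.64 to 2.18 CPM. LYZ, which secretory gut cells also express, was at 1742.0 to 1815.0 CPM and 1950.7 to 1994.9 CPM, a TMM-scaled level whose difference was not called (log2 -0.15 ± 0.10, adjusted p = 0.759) but was in the fit on the 6 libraries alone (adjusted p = 0.00044).

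Of 16763 genes tested, 512 (3.05%) differed between the extracts by the quasi-likelihood test of edgeR (adjusted p under 0.05), and such genes are termed called. With Scutellariae, 232 genes (1.38%) were higher and 280 (1.67%) lower. In 511 of the 512, every library of one extract lay beyond every library of the other, where 14.6% of all genes separated so in the higher direction and 14.0% in the lower. Most differences were small: the median size among called genes was 0.45 on the log2 scale, and past 2-fold there were 29 higher and 34 lower genes. By annotation, 468 were protein coding, 14 long intergenic RNAs, 9 antisense RNAs and 8 pseudogenes. The count changed with the libraries fitted: it was 2257 in a fit on the 6 libraries alone, 1374 without the 3 libraries that stood apart, and 167 in a fit on the libraries whose codes begin with 10. These fits also redid the filter on low counts and the scaling, and the cause of the shifts was not tested. In bulk RNA, fewer cells of a type and less RNA per cell cannot be told apart.

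**Figure D1:**
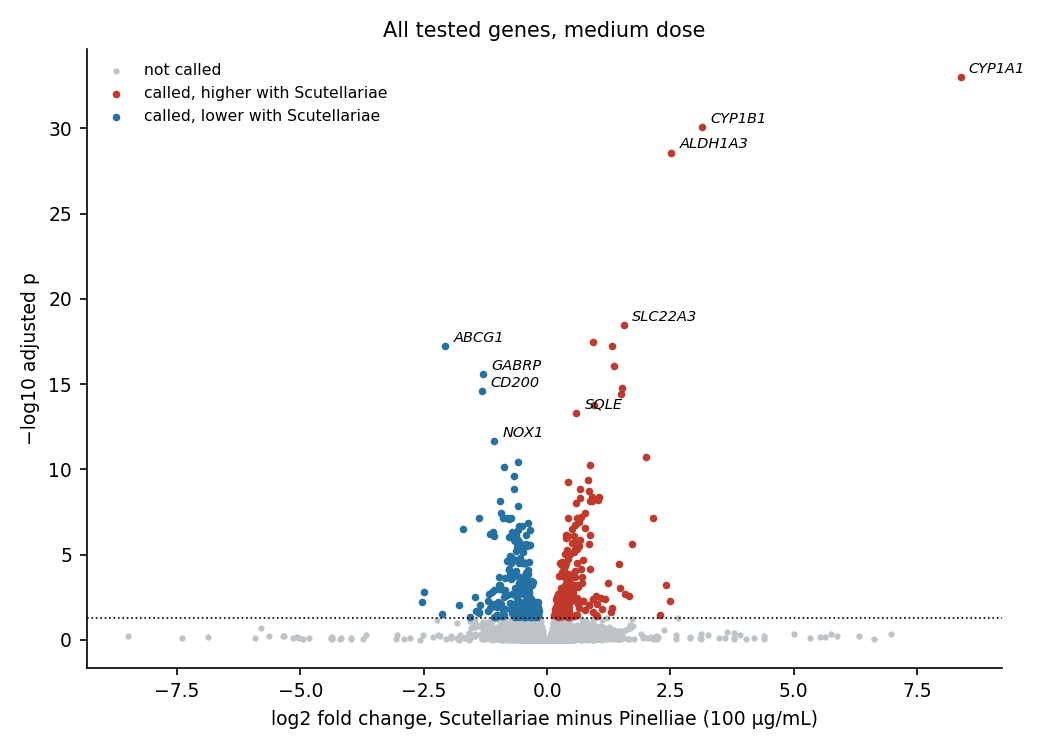
Log2 fold change of Scutellariae minus Pinelliae at 100 µg/mL (x axis) against −log10 of the adjusted p (y axis) for every gene tested, with genes called higher in red, genes called lower in blue, and the threshold of 0.05 dotted. CYP1A1 stands alone at a log2 of 8.38, and ABCG1 is the lower gene with the smallest adjusted p.

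The largest differences were in targets of the aryl hydrocarbon receptor. Of 13 genes in the list, 10 passed the filter on low counts. Of these, 9 were called higher with Scutellariae and 0 lower, where 1.38% of all genes were called higher. The count was 8 with each library of the extracts left out in turn, and 7 to 10 over all alternatives. The median log2 difference of the 10 was 1.01, against 0.0 over all genes tested. Promoters of 3 of them are shown because the receptor's core element can be read in them. Each sequence is the 250 bases upstream of a RefSeq transcript start (GRCh38.p14), written along the gene's strand, with the core GCGTG, or CACGC where it lies on the other strand, in capitals. The CYP1A1 window is chr15:74725529-74725778 (minus strand), the ALDH1A3 window chr15:100879581-100879830 (plus strand) and the TIPARP window, 1 of 3 for that gene, chr3:156674340-156674589 (plus strand). For TIPARP the window shown was picked for holding the most matches.
CYP1A1: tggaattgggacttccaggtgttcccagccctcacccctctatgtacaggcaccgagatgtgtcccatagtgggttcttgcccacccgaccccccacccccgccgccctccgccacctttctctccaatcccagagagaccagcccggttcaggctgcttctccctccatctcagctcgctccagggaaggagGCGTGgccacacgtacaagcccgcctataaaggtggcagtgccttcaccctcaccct
ALDH1A3: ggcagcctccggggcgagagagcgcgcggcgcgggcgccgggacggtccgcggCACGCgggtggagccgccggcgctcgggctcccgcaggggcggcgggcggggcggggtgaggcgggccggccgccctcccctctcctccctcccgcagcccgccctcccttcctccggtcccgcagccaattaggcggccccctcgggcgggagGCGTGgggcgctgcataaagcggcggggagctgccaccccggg
TIPARP: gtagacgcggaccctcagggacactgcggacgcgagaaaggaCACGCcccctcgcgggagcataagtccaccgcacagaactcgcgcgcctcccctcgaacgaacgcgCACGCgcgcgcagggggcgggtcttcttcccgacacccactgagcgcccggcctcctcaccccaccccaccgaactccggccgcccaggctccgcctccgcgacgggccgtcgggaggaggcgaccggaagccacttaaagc

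The CYP1A1 window holds 1 match, 57 bases upstream of the start, the ALDH1A3 window matches at 197 and 43 bases, and the TIPARP window matches at 208 and 142 bases. Of the 10 tested AhR targets, 7 have a window in the RefSeq table, and all 7 hold GCGTG on either strand in at least 1 window, or 9 of 12 windows (75.0%). Among all 34943 windows of that length, 11245 (32.2%) hold it, and by gene 9824 of 27167 do in at least 1 window. The list is of known targets of the receptor and base content was not matched, so these shares are a description and not a test. A match describes the letters and is not a measured binding site. The others of the 10, CYP1B1 and ALDH3A1 among them, were matched to no window.

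CYP1A1 (ENSG00000140465, chr15:74719542-74725610), the cytochrome P450 that is the classical read-out of the receptor, was at 183.2, 187.2 and 180.1 CPM in the 3 Scutellariae libraries. It was at 0.569, 0.323 and 0.733 CPM in the Pinelliae libraries and at 0.343, 0.168 and 0.494 CPM in the vehicle libraries. The Scutellariae libraries thus lay far above the others, while the Pinelliae and vehicle libraries overlapped. The difference between the extracts was 333-fold (log2 8.38 ± 0.18, adjusted p = 1e-33), and Pinelliae against vehicle was not called (log2 0.77 ± 0.36, adjusted p = 0.231).

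CYP1B1 (chr2:38066973-38109902), which oxidises oestrogens and polycyclic hydrocarbons, was at 498.0, 498.6 and 500.6 CPM with Scutellariae and 57.9, 55.1 and 56.5 CPM with Pinelliae. It differed 8.83-fold (log2 3.14 ± 0.08, adjusted p = 8.1e-31). ALDH1A3, an aldehyde dehydrogenase that makes retinoic acid, was at 116.0, 124.1 and 119.7 CPM against 20.6, 20.2 and 22.0 CPM, a 5.73-fold difference (log2 2.52 ± 0.07, adjusted p = 2.6e-29). For both genes the spread within an extract was small beside the gap between the extracts. ALDH3A1, a dehydrogenase of aromatic and fatty aldehydes, rose from 20.1, 21.2 and 21.7 CPM with Pinelliae to 62.7, 59.4 and 58.0 CPM with Scutellariae (log2 1.52 ± 0.10, adjusted p = 1.8e-15). TIPARP, an ADP-ribosyltransferase that represses the receptor, was at 212.9 to 214.8 CPM against 80.8 to 87.2 CPM (log2 1.35 ± 0.08, adjusted p = 8.4e-17). AHRR, the receptor's dedicated repressor, was at 5.95, 6.24 and 5.30 CPM against 4.44, 4.93 and 4.40 CPM, and this separation was not called (log2 0.35 ± 0.12, adjusted p = 0.155). It was called in the fit on the 6 libraries alone (adjusted p = 0.0303) and without the 3 libraries that stood apart (0.0435). The antisense RNA CYP1B1-AS1 was higher by 2.01 ± 0.18 (adjusted p = 2e-11). Since the sources used here do not say whether counting used strand, its reads and those of CYP1B1, which it overlaps, cannot be told apart with certainty.

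Against the vehicle, 8 of the 10 AhR targets were higher with Scutellariae and 0 lower (median log2 1.06), where 4.9% of all genes were called higher. With Pinelliae 1 was higher, TIPARP, by 0.28 ± 0.08 (adjusted p = 0.0481), where 1.05% of all genes were called higher. The TIPARP call against vehicle was lost without any 1 of 5 libraries: Pinelliae 1 (adjusted p = 0.174), 2 (0.089) or 3 (0.148), or vehicle 1 (0.371) or 2 (0.123). With the replicate number of Pinelliae and vehicle as a block in the same fit its adjusted p was 0.05 after rounding, just over the threshold. At an unadjusted p under 0.05, 3 AhR targets were higher with Pinelliae than with vehicle and 0 lower, and DESeq2 called 2 higher. CYP1B1, at 0.24, was not called by edgeR over the 54 libraries (adjusted p = 0.0771) but was by DESeq2 (0.0414). It was also called in the edgeR fit on only the Pinelliae and vehicle libraries (0.0416) and without the 3 libraries that stood apart (0.00588). The 2 vehicle comparisons share the vehicle libraries.

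**Figure D2:**
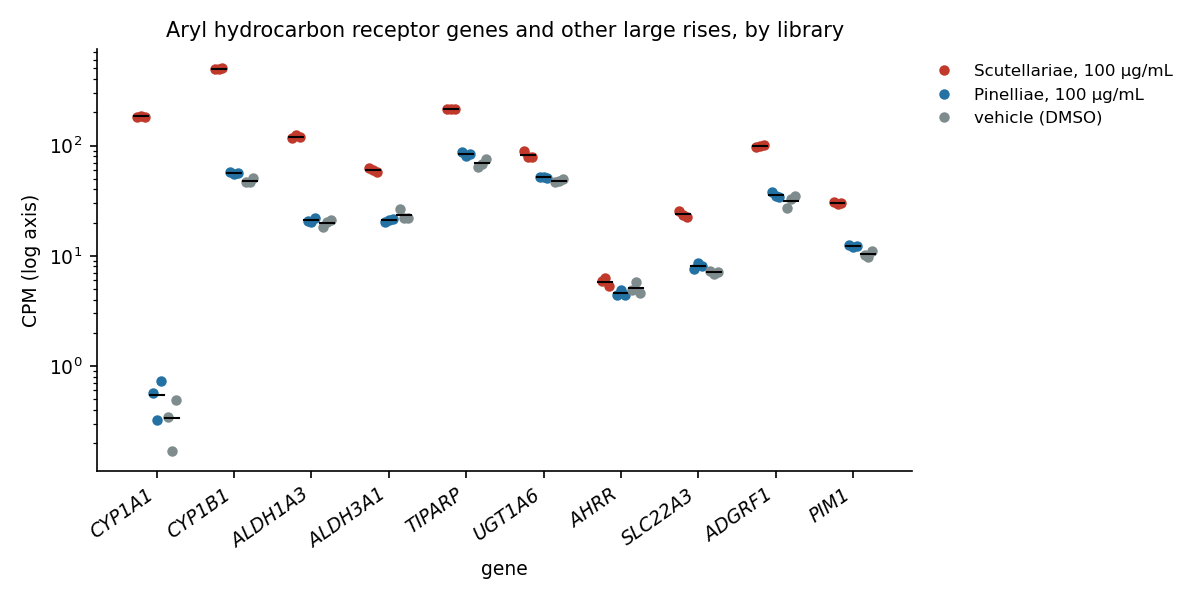
CPM on a log axis in each library (points) and their mean (black bar) for AhR-related genes and other large rises, with Scutellariae in red, Pinelliae in blue (both 100 µg/mL) and vehicle in grey; levels are comparable within a gene, not between genes. For CYP1A1 the Scutellariae libraries lie between 180.1 and 187.2 CPM and every other library is below 1, while AHRR differs little.

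Other large rises with Scutellariae were in genes with varied roles. SLC22A3, an organic cation transporter, was at 25.4, 23.2 and 22.5 CPM with Scutellariae and at 7.61, 8.69 and 8.03 CPM with Pinelliae (log2 1.55 ± 0.08, adjusted p = 3.3e-19). ADGRF1, an adhesion G protein-coupled receptor, was at 97.0, 100.0 and 101.7 CPM against 37.5, 34.5 and 33.9 CPM (log2 1.5 ± 0.10, adjusted p = 4e-15). PIM1, a serine/threonine kinase that promotes survival, was at 30.6, 29.7 and 30.4 CPM against 12.4, 12.1 and 12.2 CPM (log2 1.31 ± 0.07, adjusted p = 6.1e-18). In none of the 3 genes did the extracts' libraries overlap, which the rule that named the largest rises required. BMF, a pro-apoptotic member of the BCL2 family, rose by 1.04 ± 0.11 (adjusted p = 6.4e-09), and BIRC3, an inhibitor of apoptosis, by 0.61 ± 0.10 (adjusted p = 3.1e-05). These were the 2 members called among 19 tested apoptosis regulators (10.5%, against 3.05% of all genes). The antisense RNA VIPR1-AS1 was higher by 0.99 ± 0.22 (adjusted p = 0.00287), with the same limit on strand. GPAT3, which makes lysophosphatidic acid from glycerol 3-phosphate, was at 27.0, 28.4 and 27.8 CPM against 15.7, 14.1 and 15.7 CPM (log2 0.87 ± 0.08, adjusted p = 5.7e-11).

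The EGF receptor ligands EREG and AREG were both higher. EREG was at 204.0, 205.2 and 198.7 CPM with Scutellariae and 96.3, 96.8 and 98.0 CPM with Pinelliae (log2 1.06 ± 0.11, adjusted p = 4.4e-09). AREG was at 70.5, 69.4 and 69.2 CPM against 38.7, 38.2 and 37.7 CPM (log2 0.87 ± 0.09, adjusted p = 7.6e-09). They belong to a list of 21 tested immediate early genes and MAP kinase feedback genes, of which 6 were higher and 1 lower (median log2 0.13). Among all genes, 1.38% were called higher and 1.67% lower. The fit on libraries whose codes begin with 10 called 4 of the 21, and the fit on the 6 libraries alone 12. PHLDA1, a target of the pathway, rose by 0.43 ± 0.05 (adjusted p = 6.9e-08) and DUSP5, a nuclear ERK phosphatase, by 0.62 ± 0.12 (adjusted p = 0.00063). The lower member was SPRY2, an inhibitor of receptor tyrosine kinase signalling, named after its values were seen (log2 -0.28 ± 0.07, adjusted p = 0.0134). Its call was lost without Pinelliae library 3 (adjusted p = 0.0983) and without Scutellariae library 1 (0.164) or 3 (0.06).

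NRF2 targets formed the second group that was higher with Scutellariae. The 24 tested ranged from 0.11 to 0.84 (median log2 0.45). Of these, 17 were higher and 0 lower, where 1.38% of all genes were called higher. The count was 7 in the fit on libraries whose codes begin with 10 and 23 in the fit on the 6 libraries alone. SLC7A11, the cystine carrier that feeds glutathione synthesis, was at 288.7, 298.1 and 299.6 CPM against 166.6, 162.4 and 165.9 CPM (log2 0.84 ± 0.12, adjusted p = 2.5e-06). HMOX1, haem oxygenase 1, was at 15.6, 14.2 and 14.8 CPM against 8.92, 9.25 and 7.91 CPM (log2 0.77 ± 0.10, adjusted p = 2.6e-07). AKR1B10, an aldo-keto reductase of lipid aldehydes, was at 178.2, 191.4 and 193.7 CPM against 108.8, 109.4 and 114.4 CPM (log2 0.76 ± 0.09, adjusted p = 3.8e-08). The extracts' libraries were separate in each. TXNRD1 (thioredoxin reductase) rose by 0.55 ± 0.07 (adjusted p = 7.7e-07), NQO1 (a quinone reductase that AhR also induces) by 0.42 ± 0.08 (0.00039) and FTH1 (ferritin heavy chain) by 0.50 ± 0.11 (0.00497). AKR1C1 was higher by 0.53 ± 0.09 (adjusted p = 0.00014), but it shares reads with near-identical AKR1C genes and its own part is uncertain. SLC40A1, ferroportin, the cellular iron exporter and a member of the iron list only, was lower by -0.41 ± 0.08 (adjusted p = 0.00032).

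Against the vehicle, 14 of the 24 NRF2 targets were higher with Scutellariae (median log2 0.33), where 4.9% of all genes were called higher. With Pinelliae edgeR called 0 (median -0.09). At an unadjusted p under 0.05 there were 5 lower and 0 higher with Pinelliae, and DESeq2 called 2 lower. Among conjugating enzymes, UGT1A6, a glucuronosyltransferase of phenols, was at 88.6, 77.9 and 79.2 CPM with Scutellariae, against 51.5, 51.7 and 51.2 CPM with Pinelliae (log2 0.67 ± 0.07, adjusted p = 1.4e-09), and UGT1A10 was higher by 0.31 ± 0.05 (0.00011). The UGT1A genes share their last exons, so the split of reads among them is uncertain. The list of glucuronidation and drug efflux holds UGT1A10 but not UGT1A6, which is in the AhR list. Of its 15 tested genes, 4 were higher and 0 lower (median log2 0.06), where 1.38% of all genes were called higher. Members ranged from -1.83 to 0.57, and at an unadjusted p under 0.05 there were 4 higher and 2 lower. The count of 4 called was 2 without Pinelliae library 1 or 2 or Scutellariae library 1, 2 or 3. It was 1 in the fit on libraries whose codes begin with 10.

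The third pattern was in sterol genes, for which the vehicle libraries are given beside both extracts. Of 8 LXR targets, 4 were lower with Scutellariae than with Pinelliae and 0 higher (median log2 -0.38). Among all genes, 1.67% were called lower. ABCG1 (ENSG00000160179, chr21:42199689-42297244), which exports cholesterol to high-density lipoprotein, was at 4.50, 4.44 and 4.81 CPM with Scutellariae, 18.9, 18.8 and 20.0 CPM with Pinelliae and 4.61, 4.38 and 5.47 CPM with vehicle. The Scutellariae and vehicle libraries overlapped and the Pinelliae libraries stood above both. The difference between the extracts was -2.07 ± 0.11 (adjusted p = 6.1e-18), 4.20-fold higher with Pinelliae. Pinelliae exceeded the vehicle by 2.00 ± 0.11 (adjusted p = 1e-16), and Scutellariae against vehicle was -0.07 ± 0.12 (adjusted p = 0.785).

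ABCA1, the exporter to lipid-free apolipoprotein, was at 3.86, 4.12 and 3.97 CPM with Scutellariae, 10.1, 10.7 and 10.5 CPM with Pinelliae and 3.33, 4.40 and 4.90 CPM with vehicle. Its difference was -1.38 ± 0.16 (adjusted p = 6.9e-08), and Pinelliae exceeded the vehicle by 1.29 ± 0.16 (adjusted p = 1.9e-06). MYLIP, a ubiquitin ligase that limits lipoprotein uptake, was at 14.9, 16.3 and 15.7 CPM, 24.8, 26.3 and 23.8 CPM, and 15.8, 15.1 and 14.6 CPM in the same order. It followed the pattern of the exporters, with -0.68 ± 0.06 between the extracts (adjusted p = 2.6e-10) and 0.72 ± 0.06 for Pinelliae against vehicle (adjusted p = 3.4e-10). SREBF1, which encodes the lipogenic SREBP1, was at 138.8, 125.3 and 127.3 CPM with Scutellariae and 184.6, 198.6 and 184.5 CPM with Pinelliae (log2 -0.54 ± 0.10, adjusted p = 0.00021), with the vehicle between them at 156.9, 170.2 and 153.4 CPM. Of the members not called, 3 were named after their values were seen: LPCAT3 at -0.22 (adjusted p = 0.206, and 0.0175 in the fit on the 6 libraries alone), NR1H3, which encodes LXR alpha itself, at 0.03 (0.991), and SMPDL3A at 0.10 (0.961).

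Genes of cholesterol synthesis and uptake moved the other way. Of 23 tested, 19 were higher with Scutellariae and 0 lower (82.6%, median log2 0.35), against 1.38% of all genes called higher. SQLE, squalene epoxidase, was at 957.9, 934.5 and 953.5 CPM with Scutellariae, 636.1, 614.8 and 636.1 CPM with Pinelliae and 789.6, 789.0 and 825.3 CPM with vehicle. The vehicle libraries lay between the extracts without overlap, and both sides were called: the extracts differed by 0.59 ± 0.04 (adjusted p = 4.7e-14), Scutellariae exceeded the vehicle by 0.24 ± 0.04 (0.00012) and Pinelliae fell by 0.35 ± 0.04 from it (1.2e-06). INSIG1, which retains SREBP in the endoplasmic reticulum and is itself an SREBP target, was at 187.0, 194.2 and 193.8 CPM, 147.0, 151.7 and 140.4 CPM, and 182.8, 178.7 and 178.0 CPM in the same order. Its extracts differed by 0.39 ± 0.05 (adjusted p = 6.8e-07), Pinelliae was below the vehicle by -0.30 ± 0.05 (0.00068) and Scutellariae against vehicle was not called (0.09 ± 0.05, 0.264). LSS, lanosterol synthase, differed by 0.30 ± 0.05 (adjusted p = 2.9e-05), and it too was below the vehicle with Pinelliae (-0.32 ± 0.05, 4e-05) and not called with Scutellariae (-0.03 ± 0.05, 0.756).

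HMGCS1, an early enzyme of sterol synthesis, was at 295.4, 308.4 and 303.3 CPM with Scutellariae and with Pinelliae at 216.9, 196.5 and 207.1 CPM (log2 0.55 ± 0.11, adjusted p = 0.00065). Of the members not called, STARD4, a sterol carrier, was at 0.32 ± 0.11 (adjusted p = 0.113) and SREBF2, which encodes SREBP2, at 0.07 ± 0.07 (0.87). Both were named after their values were seen, and STARD4 was called in the fit on the 6 libraries alone (adjusted p = 4.9e-08).

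Against the vehicle, 12 of the 23 cholesterol genes were lower with Pinelliae and 0 higher (median log2 -0.30), where 1.06% of all genes were called lower. With Scutellariae 4 were higher and 1 lower (median 0.03), where 4.9% of all genes were called higher and 4.64% lower. Without vehicle library 1, which stood apart, the count with Pinelliae was 5 lower of 23, and without all 3 libraries that stood apart it was 20. The count of 19 between the extracts was 3 in the fit on libraries whose codes begin with 10. Over all genes, 1598 (9.53%) were called for Scutellariae against vehicle and 354 (2.11%) for Pinelliae against vehicle. With a replicate block on the Pinelliae and vehicle libraries in the same fit, an alternative chosen after seeing the data, the Pinelliae count was 369. A fit on only those 6 libraries gave 845 without a block and 1163 with it. Leaving out 1 library moved the Pinelliae count to 72, 88 or 73 (Pinelliae 1, 2 or 3) and to 36, 107 or 678 (vehicle 1, 2 or 3), and the Scutellariae count to 901 or 878 (Scutellariae 2 or 3) and 677 or 1038 (vehicle 1 or 2). The calls given here for ABCG1, ABCA1, MYLIP, SQLE, INSIG1 and LSS against vehicle were kept with each library left out.

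**Figure D3:**
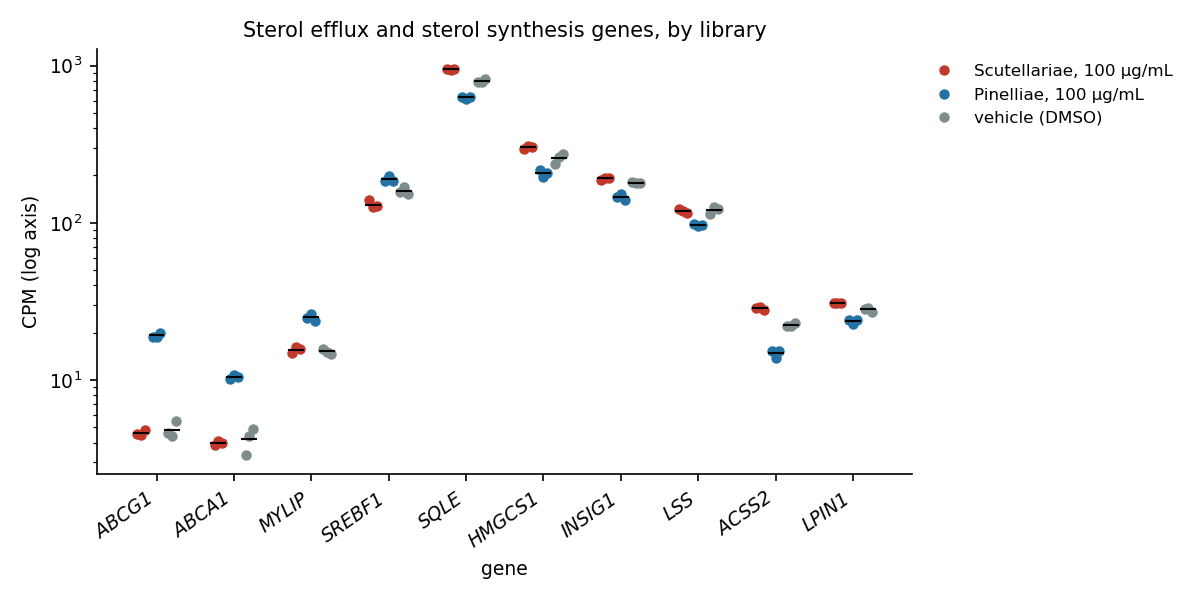
CPM on a log axis in each library (points) and their mean (black bar) for sterol export genes (left) and genes of sterol and acyl lipid synthesis (right), with Scutellariae in red, Pinelliae in blue and vehicle in grey; levels are comparable within a gene only. For ABCG1 the 3 Pinelliae libraries (18.8 to 20.0 CPM) stand above the other 6, and for SQLE the vehicle lies between the extracts.

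Lipid genes outside the sterol pathway differed one by one. ACSS2, which makes acetyl-CoA from acetate, was at 28.5, 29.1 and 28.0 CPM with Scutellariae, 15.4, 13.8 and 15.2 CPM with Pinelliae and 22.2, 22.0 and 23.0 CPM with vehicle. As with SQLE, the vehicle lay between the extracts, and all 3 differences were called: 0.95 ± 0.07 between the extracts (adjusted p = 1.6e-14), 0.35 ± 0.06 for Scutellariae against vehicle (0.00022) and -0.60 ± 0.07 for Pinelliae against vehicle (1.3e-07). LPIN1, a phosphatidic acid phosphatase, was higher by 0.38 ± 0.07 (adjusted p = 0.00017) and ME1, the NADPH-producing malic enzyme, by 0.46 ± 0.09 (0.0012). In the list of 14 tested fatty acid synthesis genes these 3 were higher and SREBF1 lower (median log2 -0.03). That is 28.6% called, against 3.05% of all genes. SLC2A1, the glucose transporter GLUT1, was at 727.6, 705.9 and 705.2 CPM against 525.9, 532.8 and 539.7 CPM (log2 0.42 ± 0.04, adjusted p = 5.5e-10). TXNIP, which restrains glucose uptake, was lower by -0.34 ± 0.05 (adjusted p = 2.7e-06). They were the only calls among 20 tested genes of hypoxia and glycolysis (10.0%, against 3.05% of all genes; median log2 0.07).

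Part of the integrated stress response, the programme of ATF4 that follows amino acid shortage and other stresses, was higher. Of 17 tested members, 6 were higher, SLC7A11 among them, and 0 lower (median log2 0.36), where 1.38% of all genes were called higher. ASNS, asparagine synthetase, was at 84.1, 85.8 and 84.3 CPM with Scutellariae and 66.1, 60.2 and 65.7 CPM with Pinelliae (log2 0.40 ± 0.06, adjusted p = 5.1e-06). TRIB3, a pseudokinase, rose by 0.42 ± 0.07 (adjusted p = 0.00014), DDIT4, an inhibitor of mTORC1, by 0.47 ± 0.09 (0.00099), and GDF15, a stress cytokine, by 0.62 ± 0.12 (0.00086). The differences were between 1.32-fold (ASNS) and 1.79-fold (SLC7A11) for these 5 genes. In the fit on libraries whose codes begin with 10, 2 of the 17 were called.

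Interferon-stimulated genes were lower with Scutellariae. Of 20 tested, 10 were lower and 0 higher (median log2 -0.44), where 1.67% of all genes were called lower. OAS2, which makes the activator of RNase L, was at 3.27, 2.50 and 2.57 CPM with Scutellariae, 4.98, 5.74 and 7.33 CPM with Pinelliae and 6.67, 4.32 and 6.34 CPM with vehicle (log2 between the extracts -1.12 ± 0.23, adjusted p = 0.00157). IFIT1, which binds foreign RNA caps, was at 3.86, 3.31 and 3.71 CPM, 7.04, 6.71 and 7.49 CPM, and 8.53, 6.17 and 8.28 CPM in that order (log2 -0.97 ± 0.17, adjusted p = 0.0002). In both genes the Pinelliae and vehicle libraries overlapped and the Scutellariae libraries were below all of them. IRF9, the DNA-binding part of the interferon-activated complex, was at 8.08, 8.39 and 8.40 CPM against 13.6, 13.9 and 15.3 CPM (log2 -0.78 ± 0.13, adjusted p = 7.7e-05). MX1, an antiviral GTPase, was at -0.71 ± 0.17 (adjusted p = 0.00764), a call lost without Pinelliae library 3 (0.0701) or Scutellariae library 2 (0.132).

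The count of interferon genes also rests on single libraries: it was 5 without Pinelliae 1, 4 without Pinelliae 3 and 4 without Scutellariae 2, and 18 in the fit on the 6 libraries alone. Against the vehicle, 12 of the 20 were lower with Scutellariae (median log2 -0.64), where 4.64% of all genes were called lower, and 7 without vehicle library 1. With Pinelliae edgeR and DESeq2 each called 0 (median -0.10), and 1 higher and 2 lower had an unadjusted p under 0.05.

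Large falls outside these lists were in genes with varied roles. ADH1C, an alcohol dehydrogenase, was at 0.954, 0.705 and 1.14 CPM with Scutellariae and 3.13, 3.19 and 2.78 CPM with Pinelliae (log2 -1.71 ± 0.22, adjusted p = 3.4e-07). CD200, a surface ligand that restrains myeloid cells, was at 3.63, 3.84 and 4.31 CPM against 10.7, 9.86 and 9.07 CPM (log2 -1.32 ± 0.09, adjusted p = 2.5e-15). NOX1, the superoxide-producing oxidase of colon epithelium, was at 10.0, 8.74 and 8.97 CPM against 19.3, 19.1 and 20.1 CPM (log2 -1.08 ± 0.09, adjusted p = 2.1e-12). The extracts' libraries were separate in all 3, which the rule that named the largest falls required. Against the vehicle, Scutellariae gave -1.47 ± 0.22, -1.31 ± 0.09 and -1.02 ± 0.09 (adjusted p = 7.8e-06, 4.9e-15 and 1.3e-11). GABRP, a GABA receptor subunit of epithelia, was at 8.31, 9.59 and 9.54 CPM with Scutellariae, 21.6, 22.9 and 22.8 CPM with Pinelliae and 16.3, 14.6 and 15.7 CPM with vehicle. It moved in opposite directions from the vehicle: -0.76 ± 0.08 with Scutellariae (adjusted p = 4e-09) and 0.53 ± 0.08 with Pinelliae (2.6e-05), which gave -1.29 ± 0.08 between the extracts (2.6e-16).

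CCN2, a matricellular protein and YAP target, was lower by -1.09 ± 0.14 (adjusted p = 4.7e-07), DLL4, a Notch ligand, by -1.07 ± 0.14 (8.2e-07), and METTL7A, a lipid droplet methyltransferase, by -1.16 ± 0.15 (6.4e-07). KLRC2, a lectin-like receptor gene, was lower by -1.08 ± 0.22 (adjusted p = 0.00123), but it has near-identical neighbours that can take its reads. ATOH1, the transcription factor of secretory cells, was at 2.45, 2.04 and 2.27 CPM against 4.41, 4.85 and 3.82 CPM (log2 -0.95 ± 0.19, adjusted p = 0.00078). It was the 1 call among 14 tested secretory lineage genes (7.1%, median log2 -0.04), against 3.05% of all genes. EPHB3, a Wnt target of the crypt, was lower by -0.56 ± 0.11 (adjusted p = 0.0005). It was the 1 call among 13 tested Wnt and stem cell genes (7.7%). With 1 call each, the secretory and the Wnt lists are not read as changed. The stem cell marker LGR5 was at 38.6, 40.0 and 37.8 CPM and 39.7, 38.9 and 40.0 CPM, a difference of -0.03 ± 0.07 that was not called (adjusted p = 0.993). Both extracts were above the vehicle in LGR5 (28.3, 29.1 and 32.2 CPM), by 0.38 ± 0.08 (adjusted p = 0.00079) and 0.41 ± 0.08 (0.00219). Of 13 tested enterocyte genes, 2 were higher and 1 lower (23.1% called, against 3.05% of all genes, median log2 -0.01). The count of 3 was 1 without Pinelliae library 1 or 3 or Scutellariae library 3, and 0 in the fit on libraries whose codes begin with 10. CEACAM6, an epithelial adhesion molecule and 1 of the 2, was higher by 0.38 ± 0.07 (adjusted p = 0.00026), and 0.0854 in that fit.

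Targets of p53 went both ways, with 4 of 18 called (22.2%, against 3.05% of all genes): CDKN1A, the cyclin-dependent kinase inhibitor p21 (0.36 ± 0.09, adjusted p = 0.00802), and GDF15 were higher, and SESN1, a leucine sensor (-0.60 ± 0.08, 3.6e-07), and BTG2, an antiproliferative factor (-0.60 ± 0.08, 1.5e-06), were lower (median log2 0.02). In 10 lists with 144 tested members edgeR called 0 in the fit over 54 libraries: DNA replication, mitosis, histones, ribosomal proteins, the mitochondrial genome, the unfolded protein response, serine and one-carbon metabolism, metallothioneins, and the immune and endothelial markers. Of those 144 genes, 18 had an unadjusted p under 0.05, and DESeq2 called 4. The fit on the 6 libraries alone called 30 of 142, and the fit without the 3 libraries that stood apart 12 of 144. Among the lists not yet described, amino acid transporters had 4 of 11 called (3 higher, 1 lower; 2 without Scutellariae library 1), and genes of iron and haem 4 of 13 (3 higher, 1 lower). Autophagy and lysosome genes had 3 of 20 called (1 without Pinelliae library 1), NF-kB and chemokine genes 2 of 19 (1 without Pinelliae library 1 or 2 or Scutellariae library 1). Aminoacyl-tRNA synthetases and epithelial junctions had 1 of 15 each, heat shock genes 1 of 15 (0 without any 1 of the 6 libraries), and MHC class I and PPAR targets 1 of 12 each.

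Of the 64 genes named here and called between the extracts, 17 lost the call in the fit on libraries whose codes begin with 10, with adjusted p of 0.0531 to 0.365. They were NQO1, FTH1, SLC40A1 and UGT1A10 among antioxidant, iron and conjugation genes, HMGCS1, SREBF1 and ME1 among lipid genes, TRIB3, DDIT4, GDF15 and CDKN1A among stress genes, and EPHB3, CEACAM6, KLRC2, VIPR1-AS1, SPRY2 and LUM. The fit on the 6 libraries alone kept the call of all 64.

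**Figure D4:**
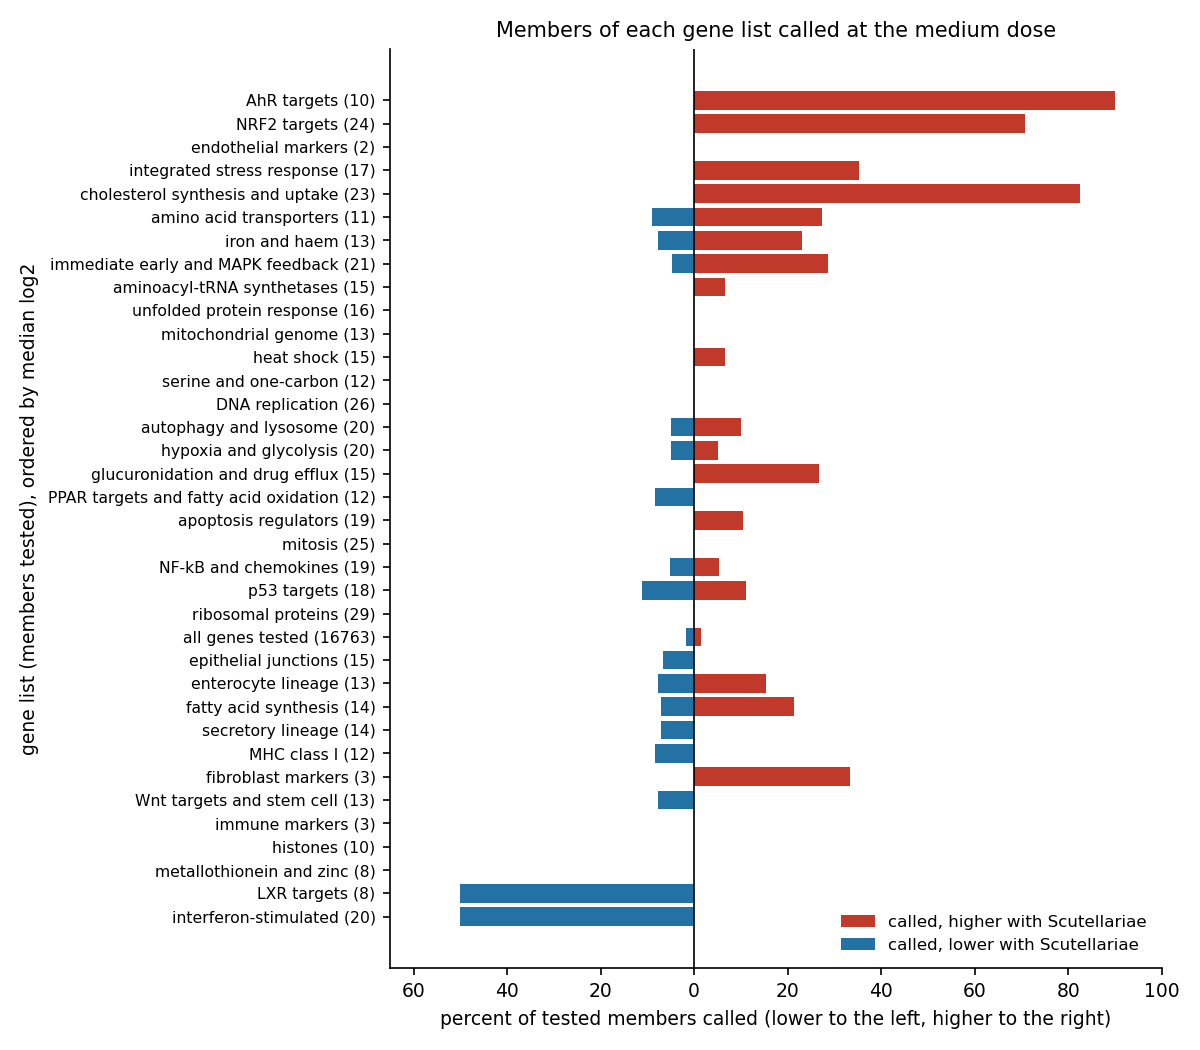
Percent of the tested members of each gene list called higher (red, to the right) or lower (blue, to the left) with Scutellariae at the medium dose, ordered by median log2, with the number tested in brackets and all genes for scale. AhR, cholesterol and NRF2 lists reach 90.0%, 82.6% and 70.8% in the higher direction, and LXR targets and interferon-stimulated genes 50.0% in the lower, against 1.38% and 1.67% of all genes.

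The same difference between the extracts was then followed at 20 and 500 µg/mL, where the values are given without calls. Of the 232 genes higher with Scutellariae at 100 µg/mL, 187 (80.6%) had the same sign at the low dose and 215 (92.7%) at the high dose. Of the 280 lower genes, 220 (78.6%) and 273 (97.5%) did, where all genes gave 56.9% and 64.1%. The median of the higher genes was 0.09, 0.43 and 0.53 at low, medium and high dose, and that of the lower genes -0.10, -0.49 and -0.60. The medium-dose values chose these genes, so the smaller values at the other doses are a description. The test of the difference between doses called 82 genes (0.489%) for medium against low and 373 (2.23%) for medium against high, 224 of them (1.34%) with a positive and 149 (0.889%) with a negative difference. Without Scutellariae low-dose library 2 the first count was 137, and without Pinelliae high-dose library 1 or 3 the second was 1381 or 1027.

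The named genes differed in their course over the doses. CYP1A1, CYP1B1 and ALDH1A3 peaked at the medium dose: with Scutellariae, CYP1A1 was at 2.22 ± 0.82, 183.5 ± 3.58 and 51.1 ± 1.30 CPM (mean ± SD, n = 3) at 20, 100 and 500 µg/mL, and with Pinelliae it was at 0.365, 0.542 and 1.08 CPM. The extracts thus differed by 2.63 ± 0.28, 8.38 ± 0.18 and 5.55 ± 0.16 on the log2 scale, and the medium dose exceeded the low by 5.75 ± 0.49 (adjusted p = 6.1e-11) and the high by 2.83 ± 0.31 (2.2e-08). ALDH1A3 with Scutellariae was at 32.3 ± 2.81, 119.9 ± 4.08 and 43.6 ± 1.04 CPM, and its medium-dose difference exceeded the high-dose one by 1.54 ± 0.10 (adjusted p = 4e-15). CYP1B1 was at 104.0 ± 17.0, 499.0 ± 1.38 and 297.5 ± 6.17 CPM and exceeded it by 0.90 ± 0.10 (8.7e-08). SLC22A3, TIPARP, ALDH3A1, ADGRF1 and UGT1A6 were larger at the medium than at the low dose, and the difference between their medium and high doses was not called (values of 0.24, 0.22, 0.38, 0.29 and 0.01, adjusted p = 0.296, 0.356, 0.162, 0.33 and 0.989). For TIPARP and ADGRF1 the call against the low dose was lost in the fit on the 12 libraries compared (adjusted p = 0.0875 and 0.101), and without the 3 libraries that stood apart the difference from the high dose was called (0.00049 and 0.00014).

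Sterol and stress genes grew further at 500 µg/mL. Of the 23 cholesterol genes, 19 were called with a negative difference of medium minus high dose, as were 0.889% of all genes. The list medians were 0.06, 0.35 and 1.08 from low to high. In the fit on the 12 libraries compared, HMGCS1 and STARD4 lost that call (adjusted p = 0.0817 and 0.0869), and SQLE, INSIG1 and LSS kept it. SQLE with Pinelliae was at 768.1, 629.0 and 550.7 CPM from low to high dose and with Scutellariae at 819.8, 948.6 and 1307.3 CPM, so the extracts moved apart from both sides. ACSS2 differed by 0.21, 0.95 and 2.33, ASNS by 0.20, 0.40 and 1.28, and TRIB3 by 0.13, 0.42 and 1.58. The high exceeded the medium dose in each (differences of medium minus high of -1.38, -0.88 and -1.17, adjusted p = 4.7e-14, 5.9e-10 and 9.7e-11). HMOX1 and SLC7A11 were of this kind in the fit over all libraries (-0.61 and -0.75, adjusted p = 0.00591 and 0.00554), but not called in the fit on the 12 libraries compared (0.161 and 0.368). Of the 24 NRF2 targets, 9 were called in that direction, against 0.889% of all genes.

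The exporters of the LXR list had reached most of their difference by 100 µg/mL. ABCG1 with Pinelliae was at 7.51 ± 1.00, 19.2 ± 0.65 and 15.6 ± 1.70 CPM from low to high dose. The extracts differed by -0.70 ± 0.12, -2.07 ± 0.11 and -2.28 ± 0.12, with the medium beyond the low dose by -1.36 ± 0.17 (adjusted p = 5.6e-07) and no call between medium and high (0.21 ± 0.17, 0.572). ABCA1 gave -0.48, -1.38 and -1.73, and neither the step from low (-0.91 ± 0.24, adjusted p = 0.0714) nor that to high (0.35 ± 0.25, 0.524) was called. Without Scutellariae low-dose library 3, which stood apart, the step from low was -1.14 and called (adjusted p = 0.00203), as it was by DESeq2 (0.035), with no filter on low counts (0.00233) and without all 3 libraries that stood apart (4.2e-05). Among the falls, GABRP (-0.35, -1.29 and -2.51) and NOX1 (-0.31, -1.08 and -1.91) grew at both steps by the test (medium minus high 1.22 and 0.83, adjusted p = 1.4e-09 and 3.5e-05). For CD200 (-0.30, -1.32 and -1.72) the first step was called (-1.03 ± 0.12, adjusted p = 2.3e-07) and the second was not (0.39 ± 0.13, 0.197).

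**Figure D5:**
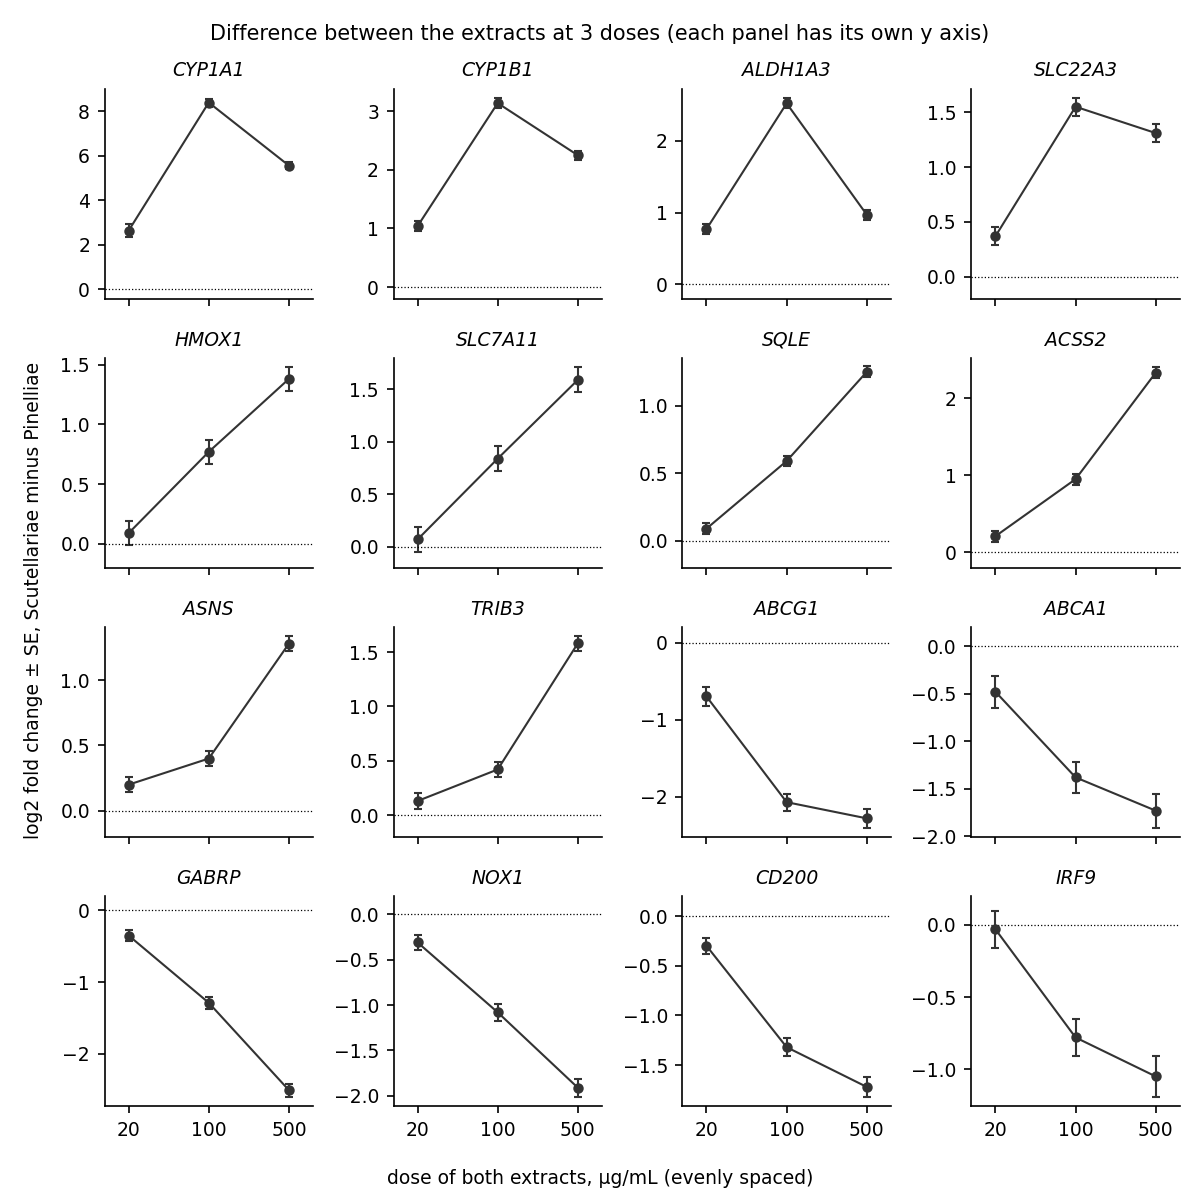
Log2 fold change of Scutellariae minus Pinelliae with its SE at 20, 100 and 500 µg/mL for 16 named genes, each with its own y axis and a dotted line at 0. CYP1A1, CYP1B1 and ALDH1A3 peak at 100 µg/mL, SQLE, ACSS2, ASNS and TRIB3 are largest at 500 µg/mL, and ABCG1 changes little between 100 and 500 µg/mL.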

How the data were processed

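Polyadenylated RNA libraries were made from 1 µg of total RNA with a directional kit and sequenced as 100 bp paired-end reads, per the labels' protocols. The submitters' processing notes name FastQC 0.11.9, Trim Galore 0.6.5, STAR 2.7.3a, RSEM 1.3.3 and hg38 (GRCh38). For the annotation release and the strand setting, the sources used here give no value. The authors deposited expected counts per gene (60675 Ensembl genes), with 90.0% to 92.1% of values whole in each library. Another 210 columns of the table belong to no sample here and were not used. Of the identifiers, 56558 had a symbol, and gene coordinates are from GENCODE 29.

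Counts were rounded. Low genes were removed by filterByExpr, and TMM scaling and edgeR 4.0.16 (R 4.3.3) were fitted over 54 libraries in 19 groups (35 residual degrees of freedom), with robust quasi-likelihood tests and Benjamini-Hochberg adjustment at 0.05 over all 16763 genes, in every comparison named. CPM are TMM-scaled, except sums of markers of other cell types, which are scaled by each library's total count, and an SE is the log2 difference over the root of F. On simulated counts (16471 genes) the medium-dose comparison called 91% of 1.5-fold and 98% of 2-fold changes, and 5.03% of calls were unchanged genes. Those counts had the spread that the fit assumes, equal group means for unchanged genes and no library that stood apart. The rates therefore need not hold for the real libraries. Alternatives included DESeq2 1.42.0, other scaling, no filter, fewer libraries and a replicate block; counts of list members under them were added after seeing the data.

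The 3 same-numbered library pairs of the extracts correlated at -0.072, -0.09 and 0.119 in their deviations, so numbers were not taken to pair them. For Pinelliae and vehicle the values were 0.122, 0.151 and 0.139, over 0.1 each, so a block on these libraries was added to the fit of all libraries, after seeing the data, and its count is given beside that result. Genes named are the 12 largest called and non-overlapping rises and falls with a mean log2 CPM above 1, up to 4 members of each of 35 lists by smallest p, a panel of 36, up to 5 per difference between doses, and those stated as named after their values were seen. These genes and lists, and the comparison itself, were chosen with earlier results of these data known. Some genes this rule names are not reported here. DDX58 and H3C2 of the lists were not matched.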

Additional observations from a re-analysis of the deposited data

Results flagged for a closer look

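For the named genes below, the difference between the extracts itself differed between doses by edgeR's test of that difference, adjusted over all genes. Values are the extract difference (log2 Scutellariae minus Pinelliae) at the medium dose minus the same at the other dose. Every group has 3 libraries.

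Against the low dose, genes of the AhR group and other rises had a larger difference at the medium dose: CYP1A1 by 5.75, CYP1B1 by 2.10, ALDH1A3 by 1.74, CYP1B1-AS1 by 1.67, ALDH3A1 by 1.18, SLC22A3 by 1.17, ADGRF1 by 1.16, TIPARP by 1.00, PIM1 by 0.89 and UGT1A6 by 0.63. EREG gave 0.77 and PHLDA1 0.40. Among NRF2 targets SLC7A11 gave 0.77, HMOX1 0.68 and TXNRD1 0.51, and among lipid and glucose genes ACSS2 gave 0.74, GPAT3 0.66, SQLE 0.50, INSIG1 0.37 and SLC2A1 0.36. Genes lower with Scutellariae were further apart at the medium dose as well: ADH1C at -1.44, ABCG1 at -1.36, METTL7A at -1.33, CCN2 at -1.18, CD200 at -1.03, GABRP at -0.93, NOX1 at -0.77, IRF9 at -0.75, BTG2 at -0.55, SESN1 at -0.53 and MYLIP at -0.47.

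Against the high dose, the difference was larger at the medium dose for CYP1A1 by 2.83, ALDH1A3 by 1.54, CYP1B1-AS1 by 1.29, CYP1B1 by 0.90 and PIM1 by 0.49. It was smaller at the medium dose for genes of acyl and sterol lipids, with ACSS2 at -1.38, LPIN1 at -1.21, HMGCS1 at -1.13, STARD4 at -1.07, INSIG1 at -1.04, LSS at -0.83, SQLE at -0.65 and GPAT3 at -0.49. Stress and antioxidant genes gave TRIB3 -1.17, DDIT4 -1.06, ASNS -0.88, CDKN1A -0.84, SLC7A11 -0.75, AKR1C1 -0.67, HMOX1 -0.61, AKR1B10 -0.44 and TXNRD1 -0.38. DUSP5 was at -1.08 and SLC2A1 at -0.25. Genes with positive values that were lower with Scutellariae at 500 µg/mL were GABRP (1.22), NOX1 (0.83), BTG2 (0.82), LGR5 (0.70) and TXNIP (0.62). For LGR5 the extracts differed by -0.03 at the medium and -0.72 at the high dose.

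With each library left out in turn, 27 of the 31 calls against the low dose and 27 of the 29 against the high dose were kept. In fits on only the 12 libraries compared, 17 of the 31 and 20 of the 29 were kept, and with a replicate block on them 9 and 18. Lost without a block were, against the low dose, ADGRF1, ADH1C, BTG2, CYP1B1-AS1, HMOX1, INSIG1, IRF9, MYLIP, PHLDA1, SESN1, SLC2A1, SLC7A11, TIPARP and TXNRD1, and against the high dose AKR1B10, GPAT3, HMGCS1, HMOX1, PIM1, SLC2A1, SLC7A11, STARD4 and TXNRD1. IRF9 against the low dose lost its call without any 1 of 10 libraries, ADH1C without Scutellariae medium-dose library 2 (adjusted p = 0.0554), BTG2 without Pinelliae low-dose library 1 (0.0609) and SLC7A11 without Pinelliae low-dose library 3 (0.0608) or Scutellariae low-dose library 3 (0.0589). Against the high dose, AKR1B10 and TXNRD1 each lost the call without any 1 of 10 libraries, and without Pinelliae high-dose library 2, which stood apart, they were at -0.34 and -0.24 (adjusted p = 0.188 and 0.133).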

How the results depend on the processing

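Between the extracts at the medium dose, 512 genes were called as reported. The count was 2257 with only the 6 libraries compared, 1965 with a replicate block on those 6, 167 with only the libraries whose codes begin with 10, and 1374 without the 3 libraries that stood apart. It was 355 to 382 with each library left out. With 18 libraries or fewer the spread is estimated from fewer degrees of freedom. For medium against low dose (82 called) it was 214 without the filter on low counts, 21 in a fit on only the libraries compared, 9 with a replicate block on them, 291 without the 3 libraries and 60 to 137 with each library left out. For medium against high dose (373) the values were 814, 94 and 68 under the first 3 of these settings, and 259 to 1381 with each library left out; the share of higher calls was 60.1% as reported and 71.7% with no filter. For Scutellariae against vehicle (1598) it was 2464 with only the libraries compared, 3024 without the 3 libraries and 677 to 1805 with each library left out. For Pinelliae against vehicle (354) it was 642 by DESeq2, 971 with no filter, 845 with only the libraries compared, 1163 with a replicate block on them, 1563 without the 3 libraries, and 36 to 678 with each library left out. The cause of these shifts was not tested. DESeq2 size factors left each of the 5 counts within 1.5 times its reported value, as did a replicate block within code sets for the 3 counts it was run on (512, 89 and 373 in the order above, vehicle contrasts not included). Of 64 named genes called between the extracts, 61 kept the call with each library left out and 46 under every alternative run. Of 1008 gene values under alternatives, 971 kept direction and side of the threshold, 25 lost the call, 12 gained it and 0 reversed.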
